A study of Mus musculus with 6 samples.

Results

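A set of 10 genes that either protect imprinted loci or write or bind methylation of histone H3 at lysine 9 (H3K9) was followed by symbol through every library. They are Zfp57, Trim28, Setdb1, Ehmt1, Ehmt2, Suv39h1, Suv39h2, Cbx1, Cbx3 and Cbx5. They are 10 of the 23889 gene symbols listed in all the tables, and all 10 were found in each of the 6 libraries. At imprinted control regions the KRAB zinc finger protein ZFP57 binds the methylated allele and recruits the corepressor TRIM28, also called KAP1. TRIM28 in turn brings in SETDB1, which trimethylates H3K9, and heterochromatin protein 1 (HP1). The complex of GLP (Ehmt1) and G9a (Ehmt2) makes mono- and dimethylated H3K9 in euchromatin, the SUV39H enzymes (Suv39h1 and Suv39h2) make the trimethylated form in pericentric heterochromatin, and the HP1 proteins Cbx5 (HP1 alpha), Cbx1 (HP1 beta) and Cbx3 (HP1 gamma) bind those marks. In embryonic stem cells this machinery is known for keeping imprints and silencing endogenous retroviruses, and in male germ cells H3K9 methylation takes part in meiosis and in the silencing of the sex chromosomes.

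Polyadenylated RNA was sequenced from 3 mouse lines of haploid androgenetic stem cells (AG-haESCs; A129-2, AOS-14 and AOS-16, 1 library each), from 1 library of round sperm and from 2 libraries of embryonic stem cells labelled ESC XX. AG-haESCs come from embryos whose only genome is that of a sperm head injected into an enucleated BDF1 oocyte, and both they and the round sperm carry the strain label C57BL/6 X DBA/2 F1 hybrid. The AG-haESCs were kept on feeders with KSR (a serum replacement) and 2i (inhibitors of MEK and GSK3), and haploid G0/G1 cells were sorted after Hoechst staining. The round sperm label repeats that culture and sorting text and gives the cell type as sperm. The ESC XX had an Oct-GFP (C57) background and were cultured with LIF, serum and 2i, then freed of feeders, with no sort named. No group carries a mutation of any of the 10 genes in the labels, and no age is given. The genome (haploid and from a sperm alone, against cells labelled XX), strain, medium, sort and normalization differ together between AG-haESCs and ESC XX. Their parts in any difference between these groups, X-linked genes included, cannot be told apart.

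Depth was estimated at 8.98 to 19.7 M (mega) fragments a library, and 11406 to 12515 genes reached an FPKM (fragments scaled to transcript length and library depth) of 1. The deposited FPKM summed to between 509359 and 707325 in the AG-haESC libraries and to 1239225 in round sperm, so values are also given as TPM, each gene's FPKM as a share of its library's total. The cell type labels held against marker sums. The 12 spermatid genes summed to 34310 TPM in round sperm and to 1.43 to 4.09 TPM in the AG-haESC lines. Pluripotency genes summed to 7660 to 8497 TPM in AG-haESCs, 8011 and 8112 TPM in ESC XX and 205.5 TPM in round sperm. Klf4 alone gave 176.5 TPM of the round sperm sum, above its 91.25, 164.0 and 157.8 TPM in A129-2, AOS-14 and AOS-16. Each other gene of that list was lower in round sperm than in every stem cell library. Dppa5a gave 3670 to 4429 TPM of the sums in the lines. The 8 spermatocyte genes summed to 2490 TPM in round sperm, of which Mael alone gave 2041, and to 75.7 to 172.5 TPM in the lines. Of these genes, Dmc1 (0.917 TPM) and Hormad1 (20.2 TPM) were lower in round sperm than in the lines, whose means were 6.86 and 35.5 TPM. The list is thus mixed, and the part of spermatocytes in the results was not tested. Of the FPKM total, 12.7% in AOS-14 and 6.26% in round sperm lay in genes with transcripts under 200 nt, against at most 0.111% in the other libraries.

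Against round sperm, Ehmt1, Suv39h1, Cbx1 and Cbx5 were higher in AG-haESCs and Ehmt2 and Suv39h2 were lower, so that both pairs of sister methyltransferases split in opposite directions. A call required an adjusted p under 0.05 in limma, corrected by the Benjamini-Hochberg method over 15938 genes, and a log2 difference of at least 1 on the log2(FPKM + 1) scale. Of the 10 genes, 4 were called higher, where 22.8% of all tested genes were, and 2 lower, where 39.1% were. Either way 6 of the 10 were called, close to the 61.9% of all tested genes. The other 4 genes (Zfp57, Trim28, Setdb1 and Cbx3) did not meet both conditions, although all 3 lines lay above round sperm for each. The median difference was 0.76 over the 10 genes and -0.49 over all tested genes. With 1 round sperm library the test takes its spread from the 3 lines alone, with 2 residual degrees of freedom, and assumes that the lone library varies like them.

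The scaling of the libraries moved these counts but turned no gene's sign. When every library was rescaled to the same total, the median of all genes went from -0.49 to 0.40, and 7 of the 10 genes were called higher and 1 lower, where 30.5% and 28.1% of all tested genes were. Trim28, Zfp57 and Cbx3 joined the genes called higher and Suv39h2 was no longer called lower. All 10 genes kept their sign under each of the 9 alternatives run. In deposited FPKM 8 had all 3 lines above round sperm while 2 had all 3 below. The share of all genes with the lines on the same side was not computed, so these 2 counts have no baseline. In bulk samples like these, fewer cells of a type and less RNA per cell cannot be told apart.

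**Figure D1:**
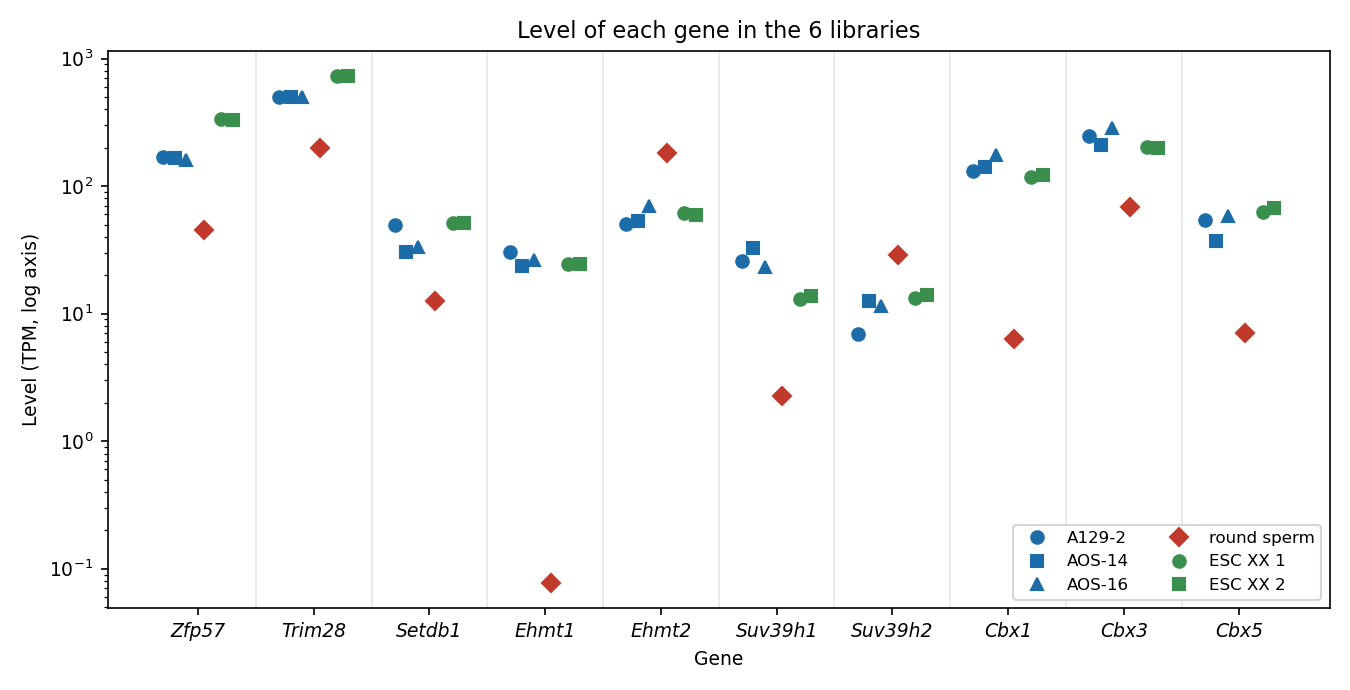
Level of each of the 10 genes in each library, in TPM on a log axis, with 1 point per library for AG-haESCs (3 lines), round sperm (1) and ESC XX (2). Ehmt1 sits at 0.0779 TPM in round sperm and between 23.7 and 30.2 TPM in the AG-haESC lines, while Ehmt2 is at 182 TPM in round sperm and 50.1 to 69.4 TPM in the lines.

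Zfp57, the imprint reader, was expressed in every library. It stood at 85.7, 116.5 and 87.7 FPKM in A129-2, AOS-14 and AOS-16, at 56.0 in round sperm, and at 170.8 and 168.4 in the ESC XX libraries. The 3 groups did not overlap, with ESC XX highest and round sperm lowest. AG-haESCs exceeded round sperm by 0.76 ± 0.25 (log2 ± SE, limma adjusted p = 0.0865 as deposited), and by 1.84 (adjusted p = 0.00205) on equal totals. That is 1.26 and 1.44 above the median of all genes on those scales.

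Trim28, the corepressor that ZFP57 and other KRAB zinc finger proteins share, was the most abundant of the 10 genes in each library. It was listed at 254.9, 355.1 and 271.8 FPKM in A129-2, AOS-14 and AOS-16, at 248.1 in round sperm, and at 370.3 and 369.6 in ESC XX. In TPM the 3 lines were nearly level with each other, at 500.4, 502.0 and 497.4, well above 200.2 in round sperm and below 729.6 and 728.0 in ESC XX. The difference from round sperm was 0.23 ± 0.26 as deposited (limma adjusted p = 0.493) and 1.32 with adjusted p = 0.00287 on equal totals, so its call depends on the scaling. Setdb1, the enzyme TRIM28 recruits to trimethylate H3K9, stood at 25.2, 21.4 and 18.3 FPKM in the lines in the same order, at 15.5 in round sperm, and at 26.0 and 26.3 in ESC XX. All 3 lines were above round sperm and below both ESC XX libraries in FPKM. Its difference from round sperm, 0.44 ± 0.23, did not pass (limma adjusted p = 0.194), nor did 1.49 on equal totals (adjusted p = 0.0506), whereas it was called with quantile normalization or without genes under 200 nt, at adjusted p = 0.0291 and 0.0343. Exons of Cers2 and Gm37500 on the opposite strand cover 4.73% of the exon bases of Setdb1 in the GRCm38 annotation, and 6.66% of its 50-base words also occur in other genes.

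The 2 sister pairs that split against round sperm are shown here by their promoters, the 250 bases before the first start that RefSeq's GRCm38.p6 table lists. The deposited values were made on mm9, so these coordinates belong to the later build only. All 10 genes matched that table. It lists 3 starts for Zfp57 and 2 each for Ehmt2, Suv39h1, Cbx3 and Cbx5, of which only the first was searched. Capitals mark the half-site TGACG of the cAMP response element (CRE), searched on both strands, which factors of the CREB and CREM family bind in spermatids among other cells.
Ehmt1, chr2:24919610-24919859, minus strand: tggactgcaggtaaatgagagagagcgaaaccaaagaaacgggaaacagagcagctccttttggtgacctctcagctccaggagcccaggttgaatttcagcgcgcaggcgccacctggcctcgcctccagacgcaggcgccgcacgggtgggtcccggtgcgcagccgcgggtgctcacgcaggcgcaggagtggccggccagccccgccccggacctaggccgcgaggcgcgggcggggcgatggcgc
Ehmt2, chr17:34898224-34898473, plus strand: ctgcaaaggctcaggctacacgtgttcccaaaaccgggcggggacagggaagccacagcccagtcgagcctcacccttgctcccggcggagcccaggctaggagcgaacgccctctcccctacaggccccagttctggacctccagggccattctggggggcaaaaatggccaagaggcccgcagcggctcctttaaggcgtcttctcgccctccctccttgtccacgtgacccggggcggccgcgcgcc
Suv39h1, chrX:8074761-8075010, minus strand: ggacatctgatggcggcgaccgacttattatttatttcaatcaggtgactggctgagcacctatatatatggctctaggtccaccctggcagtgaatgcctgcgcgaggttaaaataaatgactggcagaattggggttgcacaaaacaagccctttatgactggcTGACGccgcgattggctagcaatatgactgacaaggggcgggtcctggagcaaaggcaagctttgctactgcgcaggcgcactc
Suv39h2, chr2:3474987-3475236, minus strand: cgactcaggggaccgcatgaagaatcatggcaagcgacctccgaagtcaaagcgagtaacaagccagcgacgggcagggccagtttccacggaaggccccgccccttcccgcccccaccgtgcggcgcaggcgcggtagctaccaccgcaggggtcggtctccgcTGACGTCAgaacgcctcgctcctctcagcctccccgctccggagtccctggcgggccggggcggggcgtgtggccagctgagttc
The Suv39h2 window holds the full palindrome TGACGTCA, which counts as 2 half-sites that overlap, and the Suv39h1 window holds 1 half-site. The windows of the other 8 genes hold none, while 17.9% of 27025 promoter windows of this length hold a half-site and 1.62% hold the palindrome. The GC box GGGCGG occurred in 9 of the 10 windows against 32.9% of all, and Zfp57, with 3 CpG dinucleotides, was the exception. The 4 windows printed hold 26 (Ehmt1), 18 (Ehmt2), 11 (Suv39h1) and 27 (Suv39h2) CpG dinucleotides, where the median of all promoters was 6. CCAAT was found in 3 of the 10 windows against 34.5% of all, the E2F core TTTNNCGC in 2 against 4.39%, and the hexamer TGCCGC that ZFP57 recognizes in the Trim28 window alone against 8.59%. These matches describe letters in the windows, and no binding was measured.

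Ehmt1, which encodes GLP, was close to 0 in round sperm and well above it in every stem cell library. It stood at 15.4, 16.7 and 14.4 FPKM in A129-2, AOS-14 and AOS-16 (15.5 ± 1.19, mean ± SD, n = 3), at 0.0965 in round sperm, and at 12.3 and 12.4 in ESC XX. The round sperm value corresponds to an estimated 6.21 fragments over the longest transcript. The lines averaged 160.5 times the round sperm value, and the log2(FPKM + 1) difference, which understates such a change, was 3.91 ± 0.13 (limma adjusted p = 0.000985). Ehmt1 was called higher under each alternative run, with adjusted p from 0.000664 to 0.0127.

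Ehmt2, which encodes G9a, had the opposite order. Its values were 25.5, 37.4 and 37.9 FPKM in the lines (33.6 ± 7.04), 225.4 in round sperm, and 31.4 and 30.3 in ESC XX. Round sperm was far above all stem cell libraries, and AG-haESCs and ESC XX overlapped. Ehmt2 fell by 2.73 on the log2 scale (SE 0.32, limma adjusted p = 0.0105), and round sperm stood at 6.71 times the mean of the lines. On equal totals the difference was -1.66 with limma adjusted p = 0.0195. The call was lost with quantile normalization (-1.07, adjusted p = 0.0930) and without AOS-14 (adjusted p = 0.0557).

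Suv39h1, the X-linked member of its pair, was the one of the 10 genes called higher against both other groups. It was listed at 13.1, 23.1 and 12.6 FPKM in A129-2, AOS-14 and AOS-16 (16.3 ± 5.91), at 2.78 in round sperm, and at 6.66 and 6.98 in ESC XX. Every line lay above both ESC XX libraries and above round sperm. The mean of the lines was 5.86 times round sperm, a difference of 2.14 ± 0.46 (limma adjusted p = 0.0366). The call was lost without a filter on low values (adjusted p = 0.0544), without A129-2 (adjusted p = 0.0914) and without AOS-16 (adjusted p = 0.0938), and it held on equal totals (3.10, adjusted p = 0.00652). In the GRCm38 annotation the opposite-strand gene Gm14820 covers 14.6% of its exon bases and shares 20.5% of its 50-base words, and whether strand was used in quantification is not given in the sources used here.

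Suv39h2, the form known from the testis, was highest in round sperm. It stood at 3.50, 8.82 and 6.29 FPKM in A129-2, AOS-14 and AOS-16 (6.20 ± 2.67), at 36.0 in round sperm, and at 6.72 and 7.05 in ESC XX. Round sperm was 5.81 times the mean of the lines and no line came near it. Suv39h2 fell by 2.43 on the log2 scale (SE 0.57, limma adjusted p = 0.0429). This call was lost under more alternatives than the other 5, as the limma adjusted p was above 0.05 without a filter (0.0637), on equal totals (0.0717), without genes under 200 nt (0.0854), with quantile normalization (0.116), without AOS-14 (0.0749) and without AOS-16 (0.133). Dclre1c and Gm13184, on the other strand, cover 9.98% of its exon bases, and Dclre1c stood at 10.88, 20.21 and 17.1 FPKM in A129-2, AOS-14 and AOS-16, at 6.40 in round sperm and at 15.45 and 14.1 in ESC XX. The part of this overlap in the values of Suv39h2 was not tested.

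**Figure D2:**
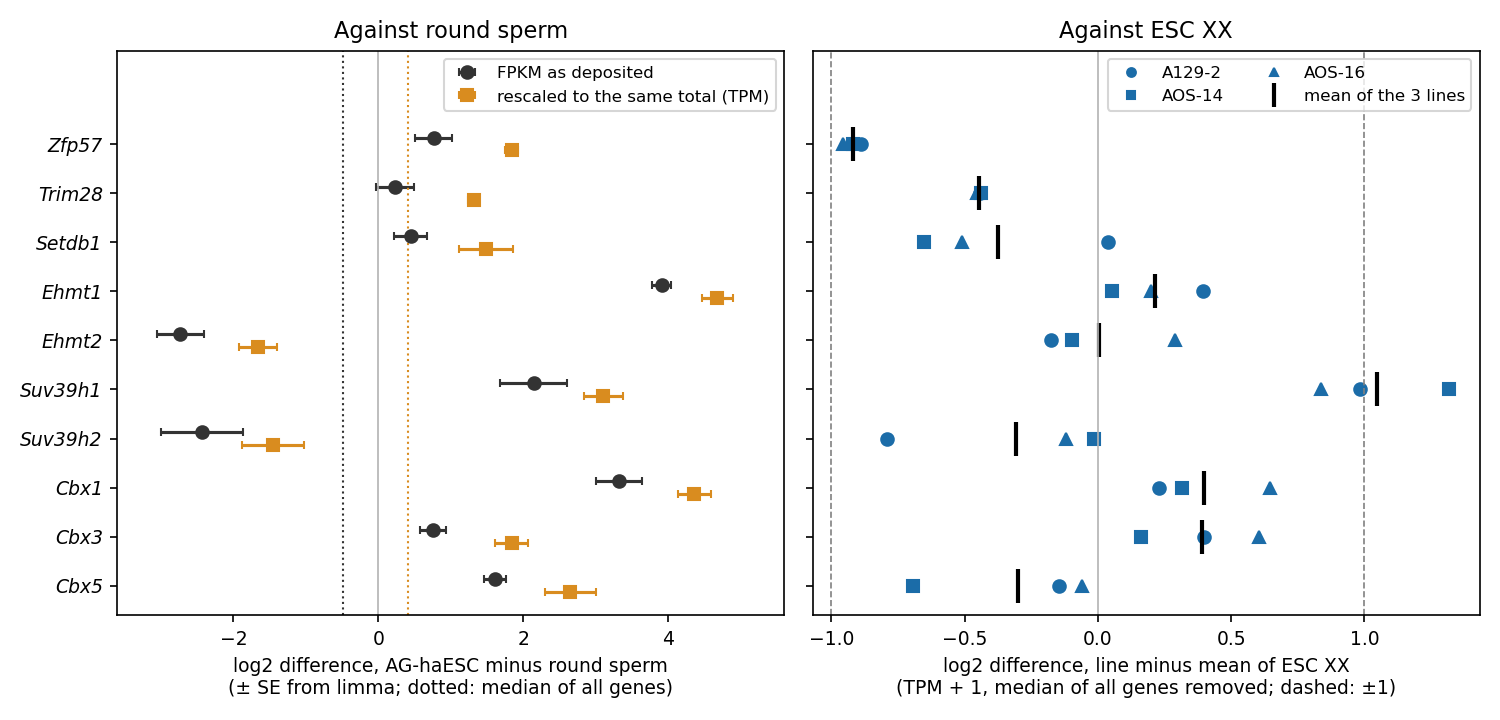
Differences of each of the 10 genes, AG-haESCs minus round sperm (± SE from limma, n = 3 lines against 1 library, with dark circles for log2(FPKM + 1) as deposited, orange squares for log2(TPM + 1), and dotted lines at the median of all genes on each scale) and each line minus the mean of ESC XX (log2(TPM + 1), median of all genes removed, black bars for the mean of the lines, dashed lines at the bounds of 1). Ehmt1 (3.91) and Cbx1 (3.32) as deposited lie farthest to the higher side against round sperm and Ehmt2 (-2.73) farthest to the lower, whereas the means against ESC XX run from -0.92 (Zfp57) to 1.05 (Suv39h1).

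The 3 HP1 genes all stood above round sperm in every line. Cbx1 was at 67.3, 99.4 and 96.7 FPKM in A129-2, AOS-14 and AOS-16 (87.8 ± 17.8), at 7.79 in round sperm, and at 60.3 and 62.3 in ESC XX. Its mean in the lines was 11.3 times that in round sperm, with a log2 difference of 3.32 ± 0.31 (limma adjusted p = 0.00698). Each line was also above both ESC XX libraries.

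Cbx5 stood at 27.9, 26.3 and 31.8 FPKM (28.7 ± 2.82) in the same order of lines, at 8.67 in round sperm, and at 32.1 and 34.0 in ESC XX. Its mean in the lines was 3.30 times that in round sperm, a difference of 1.61 ± 0.16 on the log2 scale (limma adjusted p = 0.00728), and every line was below both ESC XX libraries. Both Cbx1 and Cbx5 were called under each alternative run. Cbx3, the most abundant of the 3 in every library, stood at 126.4, 148.8 and 156.6 FPKM (143.9 ± 15.7), at 84.5 in round sperm, and at 103.7 and 100.5 in ESC XX. Its lines lay above all other libraries. The difference from round sperm was 0.76 ± 0.18, past the p threshold (limma adjusted p = 0.0434) but under a log2 difference of 1 as deposited, and 1.84 (adjusted p = 0.0128) on equal totals. Of the 50-base words of Cbx3, 4.00% also occur in 11 other genes, Cbx3-ps6 first among them.

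Shares within a family do not depend on the scaling of a library, and they showed how the mix of paralogues differed. Ehmt2 made up 62.4%, 69.1% and 72.5% of the sum of Ehmt1 and Ehmt2 in A129-2, AOS-14 and AOS-16, 71.8% and 70.9% in ESC XX, and 99.96% in round sperm. The stem cell libraries overlapped and round sperm held almost no Ehmt1. Suv39h1 made up 78.9%, 72.3% and 66.7% of its pair in the lines, 49.8% in each ESC XX library and 7.15% in round sperm. Here the 3 groups were apart, with the pair tilted to Suv39h1 in AG-haESCs, even in ESC XX and tilted to Suv39h2 in round sperm. Unlike the shares, the summed level of the pair depends on the scaling. It was 32.5, 45.1 and 34.6 TPM in the lines, 26.4 and 27.6 in ESC XX and 31.3 in round sperm. In deposited FPKM it was 16.6, 31.9 and 18.9 in the lines, 13.38 and 14.03 in ESC XX and 38.82 in round sperm, above every other library.

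Among the HP1 genes, Cbx3 supplied 57.0%, 54.2% and 54.9% of the sum in A129-2, AOS-14 and AOS-16, 52.9% and 51.1% in ESC XX, and 83.7% in round sperm. Cbx1 supplied 30.4%, 36.2% and 33.9% in the lines, 30.7% and 31.6% in ESC XX, and 7.72% in round sperm. Cbx5 supplied 9.58% to 12.6% in the lines, 16.4% and 17.3% in ESC XX, and 8.59% in round sperm. When FPKM was weighted by transcript length, which follows fragments rather than molecules, the mean share of Cbx5 over the lines went from 11.1% to 28.7%, as its longest transcript is the longest of the 3. By FPKM, AG-haESCs and ESC XX thus overlapped for Cbx1 and were apart, by a few percentage points, for Cbx3 and Cbx5. The HP1 sum was 388 to 522 TPM in the lines, 386 and 388 TPM in ESC XX and 81.5 TPM in round sperm, and in deposited FPKM 222 to 285 in the lines, 196.0 and 196.8 in ESC XX and 101.0 in round sperm. The ratio of Zfp57 to Trim28 was 0.336, 0.328 and 0.323 in the lines, 0.461 and 0.456 in ESC XX, and 0.226 in round sperm, with no overlap. No test was run on shares.

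**Figure D3:**
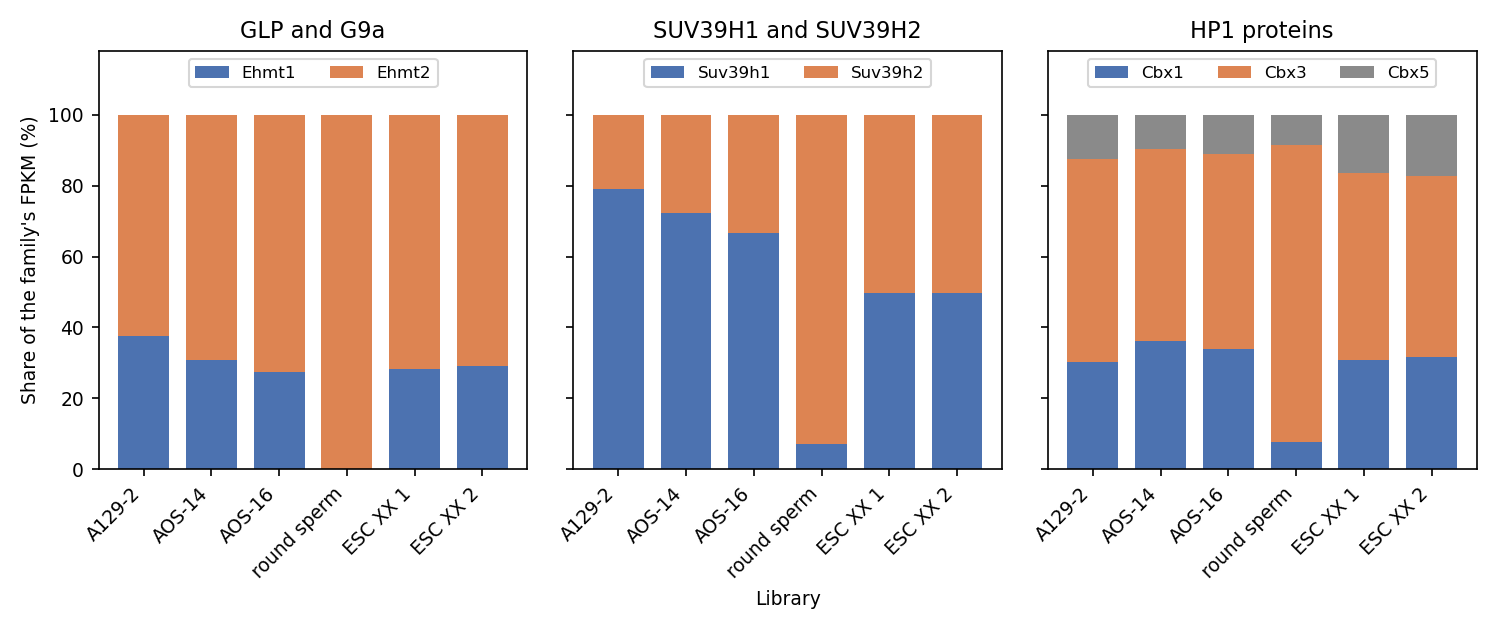
Share of each paralogue in the summed FPKM of its family, in percent, for each of the 6 libraries (1 bar per library). Round sperm is nearly all Ehmt2 (99.96%) and mostly Suv39h2 (92.9%) and Cbx3 (83.7%), while Suv39h1 is 66.7% to 78.9% of its pair in the AG-haESC lines and 49.8% in both ESC XX libraries.

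Against ESC XX the 10 genes differed less. Suv39h1 was the only one called higher and none was called lower, where a call meant a difference of at least 1 in mean log2(TPM + 1), after the median over 13172 genes was removed, and no overlap between groups. By this rule 7.37% of all genes were called higher and 8.28% lower. No test was run, because the ESC XX tables were normalized apart from the other 4 libraries and the labels do not say whether the ESC XX libraries are separate cultures. By overlap alone, 4 of the 10 genes were higher in all lines (Ehmt1, Suv39h1, Cbx1 and Cbx3), where 24.9% of all genes were, and 3 were lower (Zfp57, Trim28 and Cbx5), where 25.7% were. The median difference of the 10 genes was -0.15.

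Suv39h1 exceeded ESC XX by 1.05 ± 0.25 (SD of the lines, n = 3), or 0.98, 1.32 and 0.84 in A129-2, AOS-14 and AOS-16, with mean TPM 2.02 times as high. It sat just inside the bound of 1, and it passed out of it when the median was not removed or no filter was used (0.95) and without AOS-14 (0.82). Zfp57 sat just outside on the other side, at -0.92 ± 0.03, with -0.89, -0.92 and -0.96 in the lines and a TPM ratio of 0.492. Its lines were less alike in deposited FPKM, at 85.7, 116.5 and 87.7 in the same order. The difference of Zfp57 came to -1.02 when the median was not removed or no filter was used and to -1.01 without AOS-14. Both values thus lie at the bound.

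Trim28 differed from ESC XX by -0.45 ± 0.01, close to the same in each line on this TPM scale. In deposited FPKM its lines were less alike, at 254.9, 355.1 and 271.8 in A129-2, AOS-14 and AOS-16. Cbx1 (0.40 ± 0.22), Cbx3 (0.39 ± 0.22) and Ehmt1 (0.22 ± 0.17) were higher without overlap, and Cbx5 (-0.30 ± 0.34) was lower without overlap. Setdb1 (-0.38 ± 0.36), Suv39h2 (-0.31 ± 0.42) and Ehmt2 (0.01 ± 0.25) overlapped with ESC XX. The overlap of Setdb1 and Suv39h2 and the gap of Ehmt1 depend on removing the median of all genes, since in TPM as such all lines were below ESC XX for Setdb1 and Suv39h2 and AOS-14 was below ESC XX for Ehmt1. Ehmt2 and Suv39h2 were also the genes whose sign changed among the 11 alternatives, from -0.10 to 0.18 and from -0.55 to 0.02. The 10 fibroblast genes of the kind feeder cells express summed to 284.0, 226.4 and 357.8 TPM in A129-2, AOS-14 and AOS-16 and to 2135 and 2129 TPM in ESC XX. Vim alone gave 258.3, 97.1 and 169.1 TPM of these sums in the lines and 755.3 and 746.8 in ESC XX. Col1a1 gave 11.2, 56.4 and 95.4 TPM in the lines and 703.5 and 682.4 in ESC XX. The fibroblast sums of both ESC XX libraries were thus above those of the lines, although ESC XX were labelled as freed of feeders. The part of feeder cells in these differences was not tested.

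Between the 3 AG-haESC lines none of the 10 genes spanned a log2(TPM + 1) range of 1, which 30.9% of 12637 genes did. The median range was 0.45 over the 10 genes and 0.71 over all genes. On this TPM scale Trim28 (0.01) and Zfp57 (0.07) had the smallest ranges of the 10, whereas on deposited FPKM theirs were 0.48 and 0.44 and the smallest were those of Ehmt1 (0.21) and Cbx5 (0.26). Suv39h2 spanned 0.78, from 6.86 TPM in A129-2 to 12.5 in AOS-14, and Setdb1 spanned 0.69, from 30.2 TPM in AOS-14 to 49.4 in A129-2. On deposited FPKM, where the totals of the lines differ, Suv39h2 spanned 1.13, and with quantile normalization 1.05. With 1 library a line, the spread between lines and that between libraries cannot be told apart.

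The 40 further genes of the pathway gave 9 called higher and 9 called lower than round sperm, with a median of -0.39, or 22.5% and 22.5% of the 40 beside 22.8% and 39.1% of all tested genes. On equal totals 13 were called higher and 5 lower, or 32.5% and 12.5% beside 30.5% and 28.1%. Of 15 partners of the H3K9 methyltransferases and HP1, 3 were higher and 5 lower. Atrx, a chromatin remodeller at HP1-bound repeats, was at 32.1, 25.6 and 23.6 FPKM in A129-2, AOS-14 and AOS-16 and at 0.173 in round sperm, a difference of 4.57 ± 0.23 (limma adjusted p = 0.00213). It was, like Ehmt1, nearly absent from round sperm alone. Chaf1b, a subunit of the histone chaperone CAF-1, rose by 1.88. Atf7ip2, a relative of the SETDB1 cofactor ATF7IP, was at 98.1 FPKM in round sperm and 6.64 to 8.49 in the lines and fell by 3.56 on the log2 scale. Pphln1, a subunit of the HUSH silencing complex, fell by 3.11 on that scale.

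Of 11 H3K9 demethylases, 2 were higher than round sperm and 1 was lower, where 22.8% and 39.1% of all tested genes were. On equal totals 5 were higher and 1 lower, where 30.5% and 28.1% of all were. Kdm4d, a demethylase known from the testis, was at 137 FPKM in round sperm, was listed at 0 in A129-2 and stood at 0.144 and 0.0376 FPKM in AOS-14 and AOS-16. Its log2 difference was -7.03 ± 0.12 (limma adjusted p = 0.000205). Kdm4c and Kdm3b rose by 4.27 and 2.25 on the log2 scale, from 0.482 and 3.53 FPKM in round sperm. Round sperm thus had high Kdm4d beside high Ehmt2 and Suv39h2.

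Of 8 other imprint factors and relatives of TRIM28, 2 were higher than round sperm and 2 lower, beside 22.8% and 39.1% of all tested genes. On equal totals 3 were higher and 0 lower, beside 30.5% and 28.1%. Dppa3, which protects maternal DNA methylation after fertilization, was at 91.6, 90.8 and 36.0 FPKM in A129-2, AOS-14 and AOS-16 and at 0.149 in round sperm (5.89 ± 0.75, limma adjusted p = 0.0126). Dnmt1, the maintenance DNA methyltransferase, was at 35.15, 54.97 and 49.97 FPKM in the lines and at 2.36 in round sperm (3.80 ± 0.34, limma adjusted p = 0.00606). Its partner Uhrf1, which reads H3K9 methylation and hemimethylated DNA, differed by 0.79 ± 0.47 (limma adjusted p = 0.238) as deposited and by 1.87 (adjusted p = 0.0204) on equal totals. Zfp445, the other KRAB zinc finger protein known to guard imprints, differed by 0.36 ± 0.35 (limma adjusted p = 0.420), and it was not called on any scale run. Trim24 and Trim33, relatives of Trim28, fell by 2.53 and 1.35 on the log2 scale as deposited, and neither was called on equal totals.

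The last list held 6 KRAB zinc finger genes that act through TRIM28 on retroelements or imprinted promoters. Of these, 2 were called higher than round sperm and 1 lower, beside 22.8% and 39.1% of all tested genes. On equal totals 2 were higher and 0 lower, beside 30.5% and 28.1%. Zfp568 rose by 4.24, Zfp932 rose by 1.04, and Zfp708 fell by 1.62 on the log2 scale. Zfp708 was low in A129-2, AOS-14 and AOS-16, at 0.624, 1.12 and 0.781 FPKM, against 4.64 in round sperm. Zfp708 differed by -0.98 on equal totals, just under the bound of 1, and was not called there. Over the 14 called genes named here, the limma adjusted p ran from 0.000205 (Kdm4d) to 0.0262 (Trim24). Without AOS-14 the limma adjusted p passed 0.05 for Chaf1b (0.0526), Dppa3 (0.0658), Kdm3b (0.0580), Kdm4c (0.0868), Pphln1 (0.0583), Trim24 (0.0886), Trim33 (0.0605) and Zfp568 (0.0938), and the difference of Zfp932 was 0.95. Without A129-2 it passed 0.05 for Dppa3 (0.0506), Trim24 (0.0727) and Zfp932 (0.0607), and without AOS-16 for Chaf1b (0.0840), Zfp568 (0.0567), Zfp708 (0.0613) and Zfp932 (0.0733). Fewer of all tested genes, too, were called in each direction whichever line was left out. The calls of Atrx, Atf7ip2, Kdm4d and Dnmt1 were kept under each alternative run. All 16 named genes, Uhrf1 and Zfp445 included, kept their sign under every alternative.

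**Figure D4:**
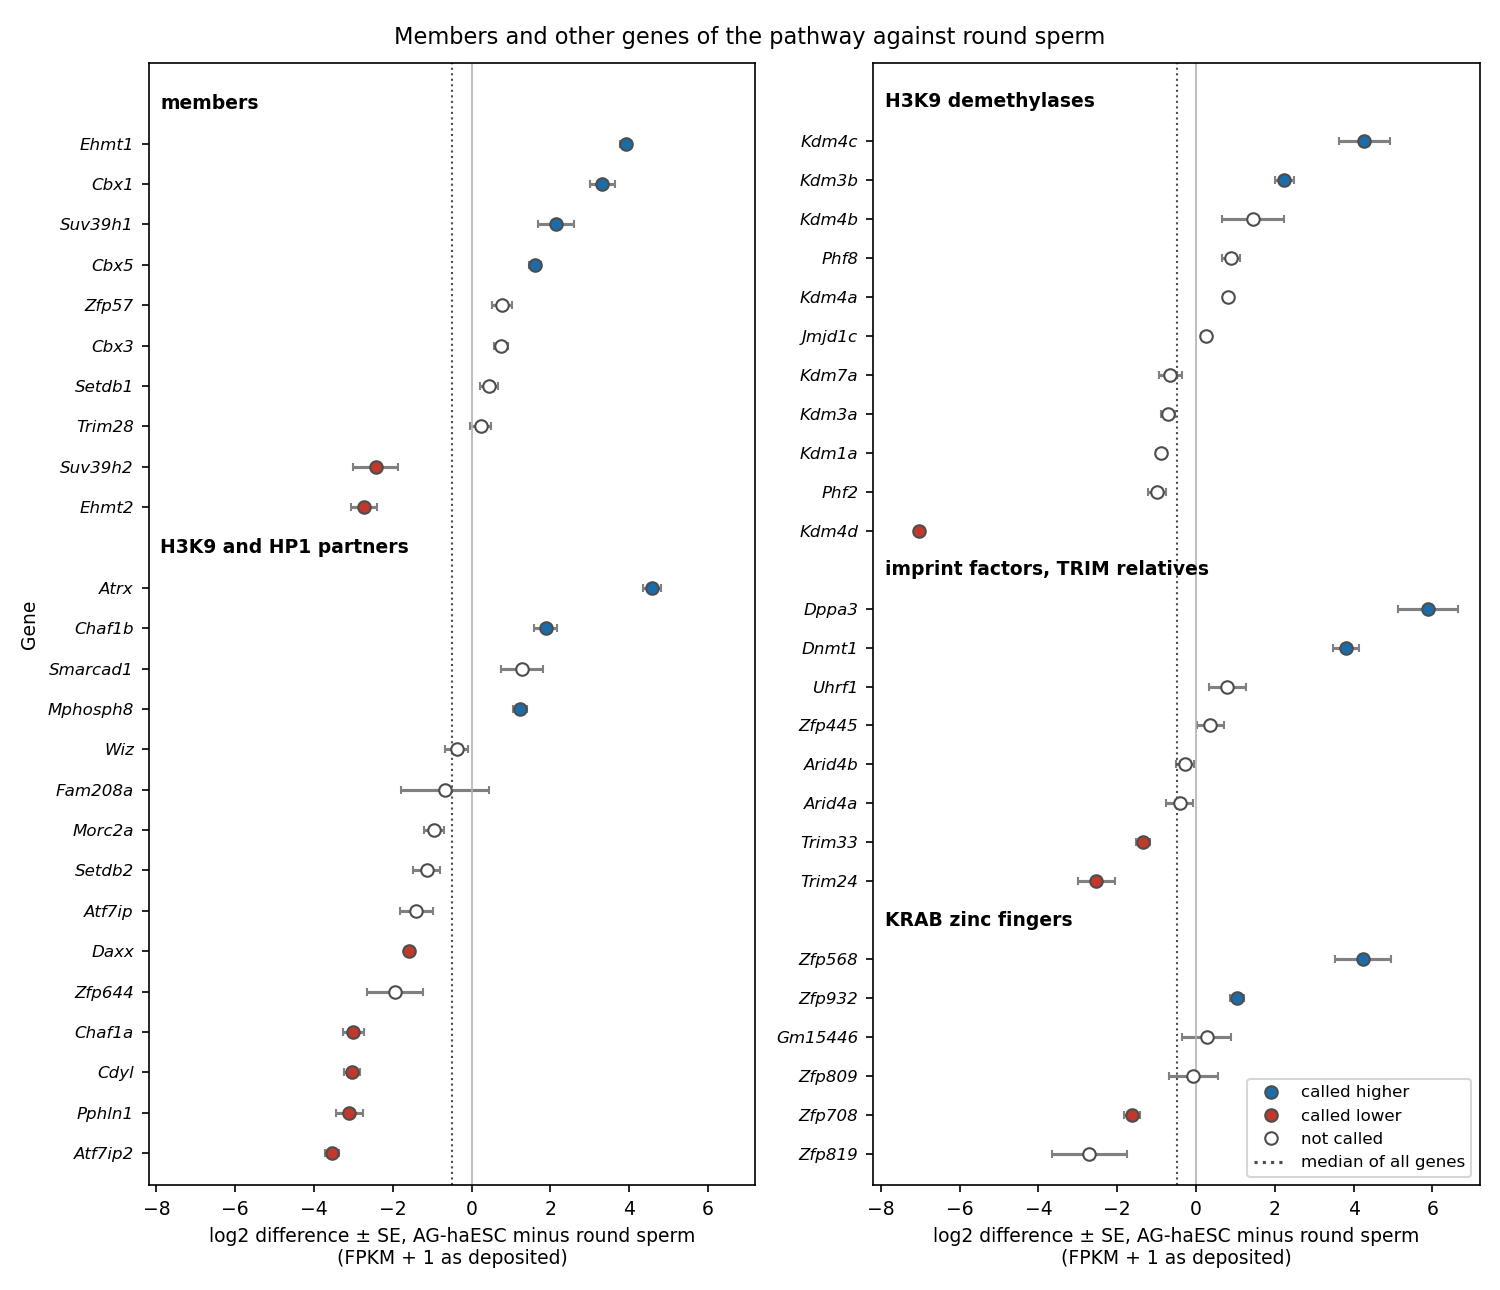
Log2 difference ± SE (log2(FPKM + 1), AG-haESCs minus round sperm, limma, n = 3 lines against 1 library) of the 10 genes and of 40 further genes of the pathway, by list, with filled points for called genes and a dotted line at the median of all genes (-0.49). Kdm4d (-7.03) and Dppa3 (5.89) lie farthest out, and 9 of the 40 are called on each side.

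Against ESC XX, 39 of those 40 genes were kept, and 2 were called higher and 3 lower, or 5.13% and 7.69%, near the 7.37% and 8.28% of all genes. Phf8, an X-linked demethylase, stood at 28.8, 15.4 and 25.0 TPM in A129-2, AOS-14 and AOS-16 and at 10.86 and 11.51 TPM in ESC XX, a difference of 1.04 ± 0.45 (SD, n = 3). Dppa3 was at 179.8, 128.4 and 65.9 TPM in the lines and 54.1 and 61.1 TPM in ESC XX (1.09 ± 0.73). Wiz, the zinc finger partner of GLP and G9a, stood at 20.7, 16.1 and 13.8 TPM in the lines and at 41.4 and 40.6 TPM in ESC XX (-1.16 ± 0.28). None of these 3 genes overlapped with ESC XX, and the lines spread most for Dppa3. Zfp819 (-1.49 ± 1.22) and Zfp809 (-1.07 ± 0.88) were lower with a wide spread, as A129-2 differed by only -0.08 and -0.25. Of these calls, those of Dppa3 (0.85) and Phf8 (0.94) were lost without A129-2, those of Dppa3 (0.92) and Zfp809 (-0.70) without AOS-14, and those of Wiz (-0.99) and Phf8 (0.995) without AOS-16. Without the first ESC XX library Phf8 came to 0.9991, under the bound. With the median not removed or without a filter Dppa3 (0.99) and Phf8 (0.94) were not called, and on deposited FPKM Zfp809 (-0.96) was not. Dnmt1 (-0.33 ± 0.20), Uhrf1 (-0.37 ± 0.29) and Zfp445 (-0.05 ± 0.59) were not called. Suv39h1, Atrx and Phf8 were the 3 X-linked genes among these 50, and Atrx differed from ESC XX by -0.39 ± 0.40, with overlap.

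Across the 6 libraries, the genes most like Zfp57 in log2(TPM + 1) were Fryl (Pearson r = 0.9996), Spry2 (r = 0.9993) and Ticrr (r = 0.9993), and those most like Suv39h2 were Ccdc163 (r = 0.992), Paqr8 (r = 0.991) and Cib2 (r = 0.990). Likeness was measured among 11716 genes with at least 10 TPM in some library, and the 6 points fall in 3 groups, the lone round sperm library among them, so these values are a description. For Zfp57, 17.3% of the genes had r above 0.9, and for Suv39h2, 1.80% had.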

How the data were processed

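Polyadenylated RNA was sequenced with a stranded kit from 3 AG-haESC lines, 1 round sperm library and 2 ESC XX libraries. Reads were aligned with TopHat2 2.0.13 and quantified with Cuffdiff 2.2.1 on mm9, per the submitters' processing notes. The authors deposited FPKM per gene symbol, with AG-haESCs and round sperm in a shared table whose header names no unit (read as FPKM from the tool and the values) and each ESC XX library in a table of its own, so these were normalized separately. Read counts were not used here, and depth was estimated from the steps of low values and is approximate.

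AG-haESCs and round sperm were compared with limma 3.58.1 in R 4.3.3 (two-sided, mean-variance trend) on log2(FPKM + 1) over genes reaching an FPKM of 1 in any library. AG-haESCs and ESC XX, lines and family shares were compared by size and overlap on TPM with no test. The p-values measure only the spread between the 3 lines, and that of the ESC XX pair may be technical. The limma step was tested on simulated data. The named genes were all 10 genes, Dppa3, Zfp445, Dnmt1, Uhrf1, and per list and comparison up to 2 called genes with the largest difference in each direction, plus the 3 genes most like Zfp57 and Suv39h2. The genes, lists and rules were chosen with earlier results of these data known. A chromosome and a length were found for 98.5% of symbols, in GENCODE for GRCm38. Alternatives covered the pseudocount, filter, scaling, trend and each library left out.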

Additional observations from a re-analysis of the deposited data

How the results depend on the processing

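Each of the 10 genes kept its direction against round sperm under all 9 alternatives, but the counts of calls moved with scaling. Against 4 called higher, rescaling to the same total gave 7, and leaving out genes under 200 nt or quantile normalization gave 8. Against 2 called lower, no filter, the same total and leaving out genes under 200 nt each gave 1 and quantile normalization gave 0. Without 1 AG-haESC line the counts were 3 to 4 higher and 0 to 2 lower. The background moved too. Over all genes, fewer were called higher and fewer lower whichever line was left out. Quantile normalization called 4779 of all 15938 tested genes higher and 4604 lower. Dropping genes under 200 nt left 15755 genes, of which 5108 were called higher and 4650 lower. Unfiltered, 3291 of 23889 genes were called higher and 5966 lower. Of the 40 further genes, 9 were higher, with 4 to 7 without a line, and 9 lower, with 5 at the same total and 6 to 11 without a line. Over all genes, 3632 called higher and 6232 lower became 4867 and 4481 at the same total. Against ESC XX, 971 of all genes called higher became 643 with the median not removed and 644 without a filter. In the same order, 1090 of all genes called lower than ESC XX became 1298 and 1361. Against ESC XX, 1 of the 10 genes higher and 0 lower became 0 and 1 both without a filter and with the median not removed, and each ranged from 0 to 1 without a library. Of the further genes 2 were higher, 0 in those same settings and 0 to 2 without a library, and 3 lower, 5 in those settings and 2 to 7 without a library. Between the lines 0 of the 10 genes passed a range of 1, and 1 did on deposited FPKM and with quantile normalization. Weighting family shares by transcript length moved the mean over lines of Cbx5 from 11.1% to 28.7%, Cbx1 from 33.5% to 23.5%, Suv39h2 from 27.3% to 34.2%, Ehmt2 from 68.0% to 59.1%, and the ratio of Zfp57 to Trim28 from 0.329 to 0.263. The cause was not tested. No paired analysis was possible because only the ESC XX labels carry replicate numbers.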
